A study of Mus musculus with 4 samples.

Results

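In the mouse MC38b tumours studied here, 780 droplet barcodes were CD8 T cells that carried transcripts of both Ifng, the cytokine interferon gamma, and Ccl4, a chemokine, at the same time. A barcode stands for the contents of 1 droplet, usually 1 cell, and each captured transcript molecule in it is counted as 1 UMI (unique molecular identifier). To be taken, a barcode needed at least 1000 UMIs, at least 500 genes and under 10% of its UMIs from mitochondrial genes. It also needed at least 2 UMIs over the T cell receptor chains Cd3d, Cd3e and Cd3g, at least 2 over Cd8a and Cd8b1, at least 3 of Ifng and at least 3 of Ccl4, with 0 of Cd4 and 0 of Foxp3. Barcodes with 3 or more UMIs over the cycling genes Mki67 and Top2a, with 3 or more over Gzmc, Gzmd, Gzme, Gzmf and Gzmg, or with more than 2 over the macrophage genes C1qa, C1qb and C1qc were left out. The members were thus chosen by measured UMIs of these genes. The 780 barcodes came from 37588 in all, of which 32779 passed the quality terms and 5186 passed every term other than those for Ifng and Ccl4. PBS library 1 gave 125 of them, PBS library 2 gave 170, the anti-PD-1 library gave 201, and the library of both antibodies, here called the combination, gave 284. The other 4406 CD8 barcodes of the same 4 libraries (843, 673, 1318 and 1572) served as the comparison. In what follows, 4 values in a row are always in that order, PBS 1, PBS 2, anti-PD-1 and combination.

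CD8 T cells are the cytotoxic arm of the T cell compartment. When the T cell receptor binds its antigen, calcium and kinase signals switch on NFAT, NF-kB and AP-1 transcription factors, and within hours the cell transcribes interferon gamma, chemokines of the Ccl3, Ccl4 and Xcl1 families, and surface receptors such as Crtam and the interleukin 2 receptor alpha chain. Interferon gamma acts on tumour and myeloid cells, Ccl3 and Ccl4 attract myeloid and T cells, and Xcl1 attracts the dendritic cells that carry Xcr1. In tumours, cells that meet antigen for long also gain inhibitory receptors such as PD-1 (Pdcd1) and Tim-3 (Havcr2) and lose the Tcf7 and Lef1 programme of naive and stem-like T cells.

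Mice bearing MC38b tumours, named so in the labels, were given saline (PBS), an antibody against mouse PD-1, or antibodies against mouse PD-1 and against TL1A, a TNF family cytokine that binds the receptor encoded by Tnfrsf25. Strain, age and sex are not given in the sources used here. Tumours were taken 24 h after 2 doses and dissociated, live cells were sorted into CD45+CD3+, CD45+CD3− and CD45−CD3− gates and remixed 9:9:2, and 20000 cells were loaded per condition. The labels state 2 saline and 4 treated mice, individually processed and pooled in equal cell numbers before sorting, so each treated group is 1 library, and whether each PBS library is 1 mouse or a pool is not stated. P-values therefore speak of differences among libraries that could be technical, and the remix sets the T cell share of each library, so shares were taken only among CD8 barcodes.

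The libraries differed in depth. Members, meaning the 780 barcodes, held a median of 10128, 11703.5, 7151 and 9666 UMIs and the other CD8 barcodes 8459, 9608, 5794 and 7779. Since the rule asks for a number of UMIs and not for a share of them, deeper barcodes pass it more easily, and all levels below are UMIs summed over the members of a library and scaled by their summed total to counts per 1000000 UMIs (CPM). The summed totals were 1418909, 2084342, 1636080 and 3088667 UMIs. Barcode sequences recurred between libraries: the PBS libraries shared 673, and the anti-PD-1 library shared 1255 with PBS library 1 and 1778 with PBS library 2. No barcode sequence was a member in more than 1 library, and 21 members (6, 14, 0 and 1) had a barcode present in another library. In 51 members (11, 7, 11 and 22), at least 5 UMIs fell on 31 genes of macrophages, neutrophils, B cells and other lineages, and the treatment comparisons were fitted with and without these barcodes.

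As the genes that set or follow the choice of these barcodes, 4 secreted factors are shown with the 250 bases before their RefSeq transcription start, since factors of the NFAT family act on promoters of this kind. Capitals mark the NFAT core motif (GGAAA, or TTTCC where it lies on the other strand) and the TATA motif (TATAAA). Sequences are from RefSeq on GRCm38.p6, written 5′ to 3′ on the strand of the gene; Ccl4 and Crtam are named only.
Ifng, plus strand, chr10:118440796-118441045: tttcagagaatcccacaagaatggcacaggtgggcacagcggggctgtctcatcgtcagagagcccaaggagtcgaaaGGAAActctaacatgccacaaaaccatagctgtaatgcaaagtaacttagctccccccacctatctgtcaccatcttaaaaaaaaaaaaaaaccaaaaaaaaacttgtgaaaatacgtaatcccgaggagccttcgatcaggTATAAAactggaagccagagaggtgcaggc
Ccl3, minus strand, chr11:83649379-83649628: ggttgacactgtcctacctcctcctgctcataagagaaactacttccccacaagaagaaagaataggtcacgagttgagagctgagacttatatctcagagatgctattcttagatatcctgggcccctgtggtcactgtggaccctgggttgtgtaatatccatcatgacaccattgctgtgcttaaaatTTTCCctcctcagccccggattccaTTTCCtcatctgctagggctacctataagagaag
Xcl1, minus strand, chr1:164935523-164935772: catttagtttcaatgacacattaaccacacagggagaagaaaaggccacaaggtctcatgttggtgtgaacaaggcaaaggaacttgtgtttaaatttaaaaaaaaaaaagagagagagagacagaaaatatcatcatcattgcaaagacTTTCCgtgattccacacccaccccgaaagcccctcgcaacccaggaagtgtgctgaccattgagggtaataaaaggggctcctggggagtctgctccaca
Ccl1, minus strand, chr11:82179813-82180062: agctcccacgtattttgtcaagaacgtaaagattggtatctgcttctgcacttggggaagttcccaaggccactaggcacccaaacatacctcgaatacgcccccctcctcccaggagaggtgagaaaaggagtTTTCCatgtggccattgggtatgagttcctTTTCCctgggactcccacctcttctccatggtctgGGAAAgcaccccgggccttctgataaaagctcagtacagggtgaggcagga
Searched on both strands, the NFAT core occurred 1 time in the Ifng window, 2 times in Ccl3, 1 time in Xcl1 and 3 times in Ccl1. It is a short motif that 55.57% of 32851 RefSeq promoter windows of the same length hold at least once and 6.39% hold at least 3 times. The TATA motif lay 30 to 25 bases before the Ifng start and is held by 12.37% of windows, and the AP-1 motif TGANTCA, held by 6.75%, was in none of the 4. A match is a run of letters, not a measured binding site. By the gene models of GENCODE M21 on GRCm38, Ifng lies at chr10:118441046-118445892, Xcl1 at chr1:164931644-164935527, Crtam at chr9:40969691-41004628 and Cd160 at chr3:96798763-96829351, while Ccl3 (chr11:83647844-83649355) and Ccl4 (chr11:83662584-83664683) are neighbours transcribed in opposite directions. All 6 are protein-coding genes.

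Ifng and Ccl4 chose the members, so their levels are a description and were not tested. Summed Ifng stood at 1562, 1160.1, 3847 and 2394 CPM in members and 109, 127, 193 and 118 CPM in the other CD8 barcodes. Ccl4 stood at 3164, 2720.3, 4272 and 6202 CPM in members and 187, 257, 246 and 433 CPM in the others. The median member held 7, 7, 7 and 5 Ifng UMIs, and the highest held 249, 305, 920 and 822. Ifng was therefore carried very unevenly: the tenth of members with the most UMIs held 58.9%, 47.6%, 70.5% and 73.7% of all member Ifng UMIs. Members made up 12.9% to 20.2% of the CD8 barcodes and held 72.4%, 73.5%, 79.1% and 82.3% of the Ifng UMIs of all these barcodes, a share the threshold itself raises. Near the Ifng threshold Ccl3 and Havcr2 were higher just inside than just outside in 3 of 4 libraries each, and Xcl1 went against the direction of the whole group. Members with exactly 3 Ifng UMIs had Havcr2 at 231, 261, 308 and 186 CPM and barcodes with 2 Ifng UMIs, just outside, at 191, 256, 251 and 232 CPM. Ccl3 in the same strata stood at 89.7, 266, 441 and 291 CPM just inside and 79.4, 274, 389 and 191 CPM just outside. Xcl1 stood at 200.1, 245, 41.6 and 85.03 CPM just inside and 341, 448, 189 and 382 CPM just outside, lower inside in all 4 libraries. The Ccl4 threshold, 3 UMIs against 2, gave another order for Xcl1. There it stood at 753, 125, 54.9 and 282 CPM just inside and 119, 299, 19.1 and 116 CPM just outside, higher inside in 3 of 4 libraries. Ccl3 stood at 109, 113, 195 and 158 CPM just inside and 11.9, 99.7, 168 and 47.0 CPM just outside. These strata held few barcodes, 12, 13, 25 and 24 inside and 16, 16, 35 and 26 outside.

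The share of CD8 barcodes that were members is a count of 125 of 968, 170 of 843, 201 of 1519 and 284 of 1856. As percentages with exact Clopper-Pearson 95% intervals, these were 12.9% (10.9 to 15.2), 20.2% (17.5 to 23.0), 13.2% (11.6 to 15.04) and 15.3% (13.7 to 17.0). Both treated libraries lay between the PBS libraries. On the log2 scale anti-PD-1 differed from the PBS mean by -0.32 and the combination by -0.11, both smaller than the SD of 0.46 between the PBS libraries. Because depth enters the rule, barcodes were also thinned to 2000 UMIs with at least 1 UMI of each gene required. This left out 0, 0, 24 and 16 shallower barcodes. The shares were then 11.9%, 14.9%, 15.4% and 15.1%, and the anti-PD-1 library was no longer below the PBS mean (log2 difference 0.20). Thinned to 4000 UMIs with 2 of each required, they were 10.8%, 13.6%, 13.5% and 12.2%, leaving out 54, 20, 316 and 139 shallower barcodes. The share was not tested between treatments, and the intervals cover counting error only.

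**Figure D1:**
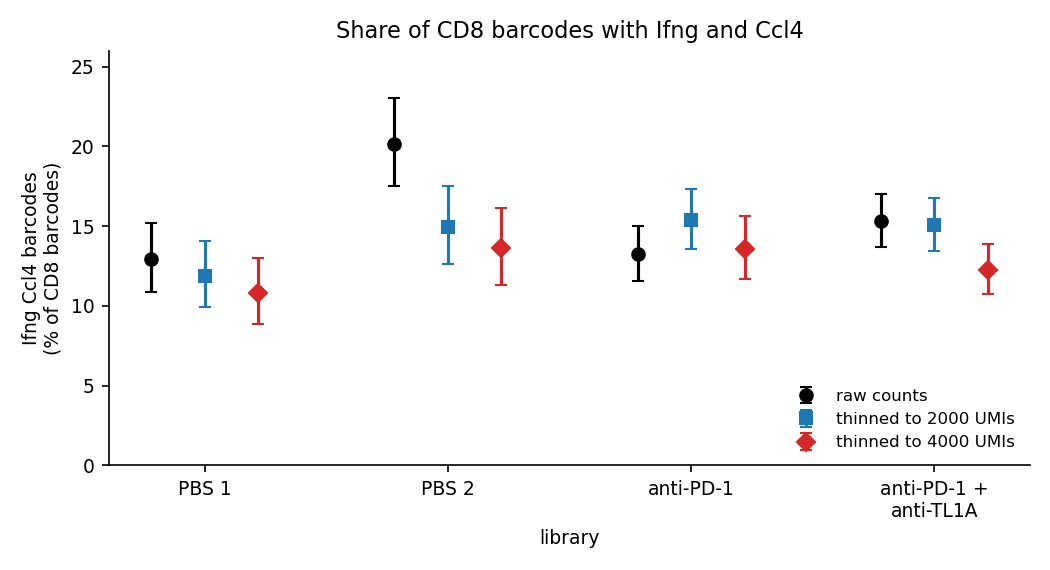
Share of CD8 barcodes that were members in each of the 4 libraries, in percent, with exact 95% intervals as bars, for all barcodes and after thinning to 2000 and to 4000 UMIs. The anti-PD-1 library stood at 13.2% before thinning and 15.4% after thinning to 2000 UMIs, and PBS library 2 moved from 20.2% to 14.9%.

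The 4 markers other than Ifng and Ccl4 that define the name of this cell state, chosen with earlier results of these data known, were higher in members than in other CD8 barcodes in all 4 libraries. Ccl3, a chemokine that attracts myeloid and T cells, stood at 877, 789, 2304 and 2047 CPM in members and 18.7, 47.6, 73.5 and 61.5 CPM in the others. Xcl1, the chemokine for Xcr1 dendritic cells, stood at 1169, 689, 566 and 766 against 231, 168, 123 and 146 CPM. PBS library 1 had the highest Xcl1 in both classes. Crtam, an adhesion receptor induced on activated cytotoxic T cells, stood at 167, 175, 155 and 141 against 71.1, 78.1, 63.7 and 64.7 CPM. Cd160, a receptor of activated CD8 T and NK cells, stood at 150.1, 155, 169 and 129.5 against 72.2, 75.05, 95.2 and 82.8 CPM. These receptors were more even across libraries than the chemokines. In edgeR's quasi-likelihood test with library as a term (n = 4 libraries, Benjamini-Hochberg adjustment over 12451 genes), the log2 difference was 4.86 ± 0.28 (SE), adjusted p = 0.0017 for Ccl3 and 2.21 ± 0.07 (SE), adjusted p = 2.2e-08 for Xcl1. It was 1.16 ± 0.07 (SE), adjusted p = 2.9e-06 for Crtam and 0.85 ± 0.08 (SE), adjusted p = 4.1e-05 for Cd160. Over all genes tested, 1083 (8.7%) were higher in members and 1002 (8.05%) lower, with a median of -0.01, so a call is common here; without the anti-PD-1 library 1202 genes were called. Among immediate early genes, which rise first after a stimulus, Fos and Jun did not pass the test (log2 differences of 0.20 and -0.05), whereas Fosb (0.54), Atf3 (0.66) and Egr1 (0.40) were higher, as were the inhibitory receptors Havcr2 and Pdcd1. The markers thus fit an activated CD8 state. How recent that activation was is not measured by these levels, so the barcodes are called members here.

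Secreted factors were mostly higher in members. Of 24 secreted effectors and ligands outside the rule, 22 were tested, 16 were higher and 1 lower, with a median log2 difference of 0.93. Ccl1, a chemokine of activated T cells, stood at 169, 94.03, 125 and 67.7 CPM in members and 21.4, 11.6, 19.4 and 10.4 CPM in the others (2.80 ± 0.09 (SE), adjusted p = 2.2e-08). Il2, the T cell growth factor, stood at 19.03, 18.2, 15.9 and 78.7 against 0.513, 1.75, 0.926 and 1.41 CPM (4.71 ± 0.41 (SE), adjusted p = 3.6e-04). Il2 rested on few barcodes: 27, 38, 26 and 243 UMIs in 8, 12, 11 and 16 members, with 112 of the 243 in 1 barcode. Tnf stood at 70.5, 70.5, 73.96 and 71.6 against 40.9, 44.7, 41.7 and 40.9 CPM, a smaller and very even difference of 0.74. The TNF family ligands Tnfsf14 (2.56), Tnfsf9 (1.66) and Cd40lg (2.30), the growth factor Csf2 (1.85) and lymphotoxin alpha, Lta (0.83), were also called higher, from low levels. The single gene called lower was Tnfsf8, the ligand of CD30, at 43.7, 21.6, 9.17 and 16.8 against 63.5, 54.8, 26.5 and 27.2 CPM. Ccl5, which CD8 effector and memory cells store at high level, stood at 2443, 2526, 3593 and 2803 against 2131, 1847, 2918 and 2664 CPM and did not pass the test (0.22 ± 0.07 (SE), adjusted p = 0.063).

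How many members carried each transcript differed by gene. A Ccl3 UMI was found in 59.2, 74.1, 78.1 and 70.8% of members, in 8.897, 16.8, 16.8 and 18.4% of other CD8 barcodes and in 6.63, 6.897, 6.34 and 4.35% of B cells, taken here as barcodes with at least 3 UMIs of Cd79a and Cd79b and none of the Cd3 chains. For Xcl1 the shares were 53.6, 35.3, 33.3 and 36.3% of members and 1.81, 3.45, 2.11 and 1.09% of B cells, and for Tnf 45.6, 42.9, 35.3 and 39.8% and 8.43, 8.05, 6.34 and 7.61%. The B cells are shallower, at a median of 4109.5, 4988, 3033.5 and 4051.5 UMIs, and the source of their Ccl3 and Xcl1 UMIs was not tested. Csf2 was found in only 2.40, 2.94, 1.99 and 1.76% of members. The members therefore shared Ccl3 widely, Xcl1 in part and Il2 or Csf2 rarely.

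**Figure D2:**
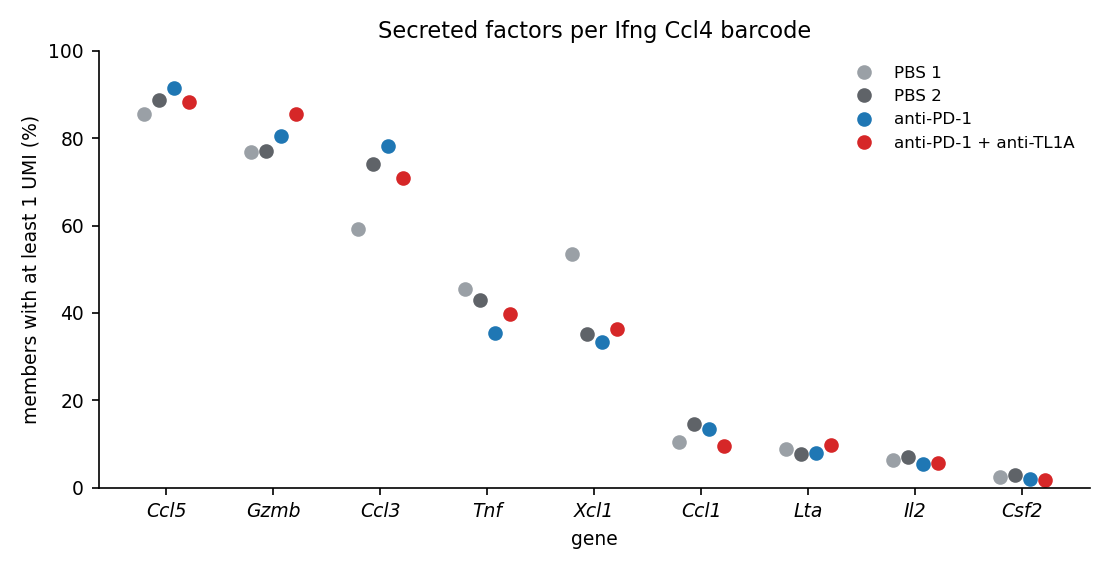
Share of members with at least 1 UMI (vertical axis, in percent) for 9 secreted or granule genes (horizontal axis), 1 point per library, coloured by library. Ccl5 was found in most members, Ccl3 in 59.2, 74.1, 78.1 and 70.8%, Xcl1 in 53.6, 35.3, 33.3 and 36.3% and Csf2 in 2.40, 2.94, 1.99 and 1.76%, and PBS library 1 stands lowest for Ccl3 and highest for Xcl1.

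Surface receptors separated into those that differed and those that did not. Havcr2, which encodes the inhibitory receptor Tim-3, stood at 292, 339.7, 309.9 and 306 CPM in members and 55.3, 96.3, 94.9 and 121 CPM in the others. Its level was nearly the same in the members of all 4 libraries, and it was higher in members than in the others (1.75 ± 0.15 (SE), adjusted p = 0.0013). Pdcd1, which encodes PD-1, stood at 241, 281, 261 and 186 against 118, 154, 171 and 154 CPM (0.65 ± 0.10 (SE), adjusted p = 0.0034). Of 16 inhibitory receptors tested, 7 were higher (Havcr2, Cd160, Entpd1, Cd244a, Lag3, Pdcd1 and Vsir) and 2 lower (Btla and Nt5e), with a median of 0.31. Tigit and Ctla4 did not pass, at 0.15 and 0.19. Il2ra, the high-affinity interleukin 2 receptor chain, stood at 128, 154, 229 and 233 against 40.3, 66.6, 61.6 and 70.03 CPM (1.61 ± 0.11 (SE), adjusted p = 2.8e-05). Of 13 costimulatory receptors tested, 4 were higher (Tnfrsf9, Slamf1, Tnfrsf4 and Cd226) and none was lower. Tnfrsf9, which encodes 4-1BB, was the most abundant of these, at 554, 528, 703 and 741 against 238, 252, 353 and 416 CPM. Among 20 chemokine receptors and adhesion genes, 2 were higher (Cx3cr1 and Itgb2) and 9 lower, led by S1pr1, Cxcr5, Ccr7 and Cxcr4.

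Genes that follow T cell receptor signalling moved together. Of 32 such genes, 25 were higher and none lower, with a median of 0.59. Zbtb32, a repressor induced in activated lymphocytes, stood at 64.8, 55.7, 108 and 77.1 against 13.9, 21.7, 30.6 and 26.4 CPM (1.69 ± 0.12 (SE), adjusted p = 1.2e-05). Irf4, which scales with receptor signal strength, stood at 80.3, 93.1, 105 and 91.9 against 40.5, 46.98, 42.8 and 41.4 CPM (1.08), and Irf8 differed by 0.99. The NFAT targets Egr2 (1.65) and Egr3 (1.45) were higher from a low base, whereas the orphan receptors Nr4a1 (0.71), Nr4a2 (0.34) and Nr4a3 (0.37) differed less. Cd69, also a receptor-induced gene, did not pass the test (-0.14) and stood at 202, 251, 185 and 218 against 257, 262, 196 and 212 CPM. Of 22 immediate early and handling stress genes, 7 were higher (Atf3, Ier3, Hsph1, Fosb, Hsp90aa1, Klf6 and Hspa8) and none lower, with a median of 0.16. Gadd45b, a stress and NF-kB target that promotes Ifng transcription, was higher, at 317, 276, 362 and 286 against 116, 139, 137 and 118 CPM (1.25 ± 0.08 (SE), adjusted p = 3.1e-06).

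Transcription factors and cytokine inputs to Ifng differed less than these targets. Tbx21, which encodes T-bet, the factor that opens the Ifng locus, differed by 0.33, and Eomes, its relative, did not pass (-0.41). Tox, a factor of exhausted cells, stood at 734, 833, 579 and 705 against 602, 671, 567 and 686 CPM and did not pass either (0.13 ± 0.07 (SE), adjusted p = 0.2). Of 23 effector and exhaustion transcription factors, 11 were higher, led by Zeb2, Irf4, Tox2 and Id2, and 4 were lower (Klf2, Bach2, Ikzf2 and Bcl6). Of 17 genes of the cytokine pathways that induce Ifng, 6 were higher (Il15ra, Il12rb1, Il18rap, Il12rb2, Tbx21 and Il2rb) and 3 lower, among them Il27ra and Irf1, with a median of 0.12. Among 11 factors that bind cytokine transcripts and set their decay, Zfp36l2, which marks AU-rich transcripts for decay, was lower (383, 391, 227 and 326 against 532, 474, 357 and 453 CPM, -0.50) and Hnrnpd was higher (0.28). Zfp36 and Zfp36l1 did not pass the test, at 0.06 and -0.05. Of 28 T cell receptor signalling proteins and brakes, 6 were higher and 2 lower, with a median of 0.02, close to that of all genes.

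Cytotoxic and growth genes were higher as well. Gzmb, the granule protease granzyme B, stood at 710.4, 710.1, 1075 and 1410.0 against 261, 279, 411 and 701 CPM (1.26 ± 0.07 (SE), adjusted p = 3.1e-06), and Prf1, the pore protein perforin, at 232, 272, 473 and 405 against 68.6, 88.00, 190.3 and 194 CPM (1.38 ± 0.10 (SE), adjusted p = 3.1e-05). In both classes the treated libraries had more of each than the PBS libraries. Of 20 cytotoxic genes, a list of granule genes that also holds the NK-type receptors Klrd1, Klrc1 and Klrk1, 12 were higher and 2 lower (Gzmm and Ctla2a), with a median of 0.42. Nearly every gene of the MYC and ribosome biogenesis list, 21 of 22, was higher and none lower, with a median of 0.55. Among them Srm, an enzyme of spermidine synthesis and a MYC target, stood at 54.3, 25.4, 54.4 and 31.4 against 18.1, 17.02, 17.7 and 12.9 CPM, and Ncl, the nucleolar protein nucleolin, at 1324, 1093, 879.5 and 978 against 860.3, 785, 626 and 596 CPM. Myc itself was low, at 27.5, 35.98, 18.3 and 34.97 against 16.2, 18.04, 5.902 and 11.3 CPM (1.22). Of 21 genes of glycolysis and amino acid uptake, 16 were higher and none lower, with a median of 0.55, among them Ldha (0.57), Pgk1 (0.66) and Eno1 (0.44). Slc2a1, the glucose transporter GLUT1, did not pass (-0.24). Other genes with large differences were Bcat1, which transaminates branched-chain amino acids (1.74), Fabp5, a fatty acid carrier (1.54), Alcam, an adhesion molecule (1.18), and Rgs8, a regulator of G protein signalling (1.17). Of 22 cell cycle genes tested, 6 were higher, all genes of DNA replication (Pclaf, Mcm3, Mcm5, Rrm1, Mcm6 and Pcna), although the rule left out barcodes with Mki67 and Top2a.

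The naive and stem-like programme was lower. Of 20 such genes tested, 16 were lower and none higher, with a median log2 difference of -1.64. Tcf7, which encodes the factor TCF1, stood at 16.2, 28.3, 14.7 and 30.4 CPM in members and 169, 154, 86.1 and 98.7 CPM in the others (-2.41 ± 0.28 (SE), adjusted p = 0.0071). Lef1, its partner, stood at 59.2, 61.4, 63.6 and 60.2 against 378, 329.7, 169 and 201 CPM (-2.09 ± 0.26 (SE), adjusted p = 0.012). Lef1 was nearly level across the members of all 4 libraries, while among the other CD8 barcodes both PBS libraries lay above both treated libraries. Dapl1, a gene of naive and memory CD8 cells, stood at 4.23, 8.64, 4.28 and 5.83 against 85.7, 54.5, 41.3 and 30.1 CPM (-3.05), and S1pr1, the receptor by which T cells leave tissue, at 16.9, 31.7, 33.6 and 29.8 against 123, 116, 98.4 and 82.1 CPM (-1.87). The genes with the largest differences also included Patj (-3.03), a polarity protein, St8sia1 (-2.71) and Cmah (-1.82), which act on sialic acids, Aff3 (-2.19), Pde2a (-1.83), a phosphodiesterase, and Fam241a (-2.06). Of 25 interferon-stimulated genes, 8 were lower, among them Irf7, and none higher, with a median of -0.33, in cells chosen for their own interferon gamma transcripts. Leaving out PBS library 2 ended the calls for Tcf7, Lef1 and Pde2a (adjusted p = 0.051, 0.056 and 0.076 in edgeR), leaving out the anti-PD-1 library that for Pde2a (0.057), and leaving out PBS library 1 or the combination that for Fabp5 (0.079 and 0.11).

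**Figure D3:**
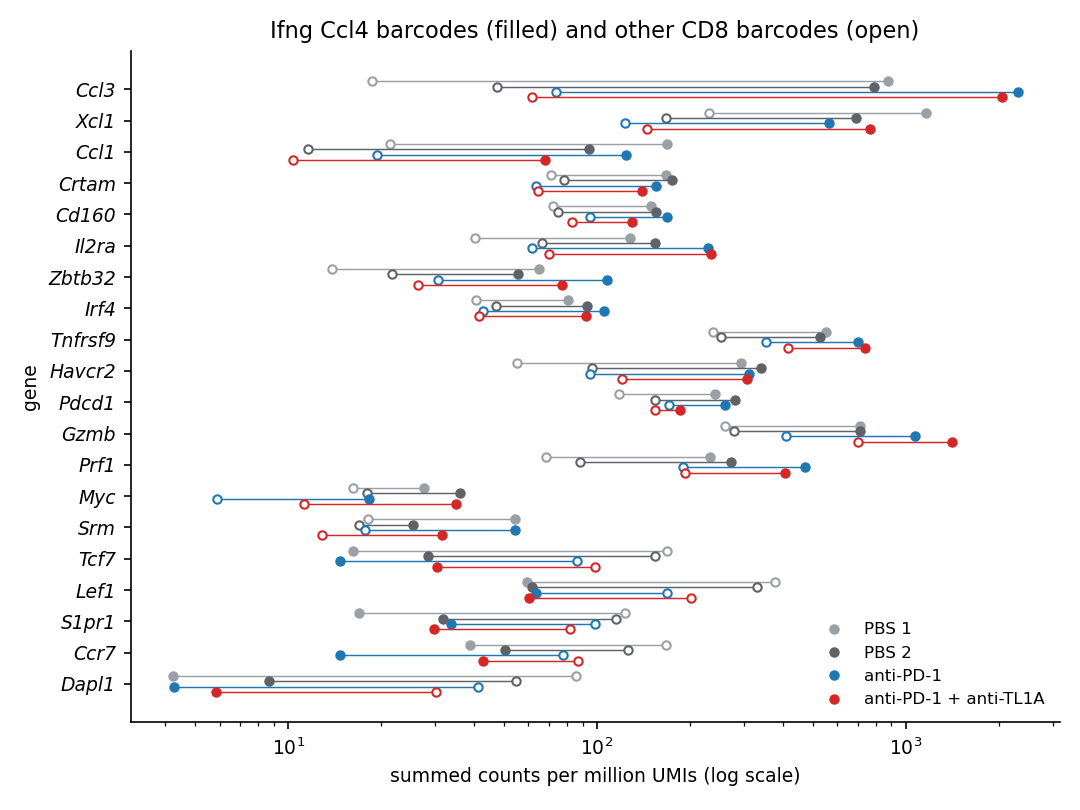
Summed level in CPM (horizontal log axis) of 20 genes (vertical axis) in members (filled points) and in other CD8 barcodes (open points), with a line joining the pair of each library, coloured by library. The filled points lie to the right of the open ones in all 4 libraries from Ccl3 down to Srm, and to the left for Tcf7, Lef1, S1pr1, Ccr7 and Dapl1.

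Markers of other cell types were measured in the same sums. Summed NK cell markers stood at 442, 440, 538 and 606 CPM in members and 334, 374, 485 and 502 CPM in the others, and of 11 NK markers tested only Fcer1g was called, higher. The receptors Klrc1 (0.63) and Klrk1 (0.45), which NK cells and activated CD8 T cells both carry and which were counted with the cytotoxic genes, were higher too. Macrophage and monocyte markers summed to 846, 799.8, 961 and 933 CPM in members and 996, 1167, 1255 and 1186 CPM in the others, and B cell markers to 92.3, 40.8, 37.9 and 29.8 and 76.5, 113, 60.3 and 79.9 CPM. Neutrophil markers summed to 72.6, 27.3, 63.0 and 335 CPM in members and 57.0, 148, 61.0 and 102 CPM in the others, and the value for the combination stands apart. Tumour and stromal markers summed to 345, 49.4, 63.6 and 142 CPM in members, with Krt8, Krt19, Cldn7, Cdh5 and Acta1 at 0 in every library. The invariant NKT cell marker Trav11 and the plasmacytoid marker Siglech were also at 0. Their part in the results was not tested, beyond the fits without the 51 barcodes.

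Barcodes that met the Ccl4 term but held no Ifng UMI ask what goes with Ifng among cells that already make Ccl4. There were 39, 31, 66 and 163 such barcodes, with a median of 9988, 9694, 6719.5 and 7858 UMIs. They met the same Ccl4 threshold as the members but were not matched to them for Ccl4 level. The part of that level in the differences below was not tested. Over 9650 genes tested, 214 (2.22%) were higher in members and 155 (1.61%) lower. The total of 369 rested on each of 3 libraries, as 157 were called without PBS library 2, 168 without the anti-PD-1 library and 217 without the combination, and on the barcodes kept, as 74 were called when members and others with any UMI of other cell types were left out. Ccl3 stood at 877, 789, 2304 and 2047 CPM in members and 93.02, 124, 296 and 145 CPM in the Ccl4 barcodes without Ifng (3.28 ± 0.17 (SE), adjusted p = 2.3e-05). Ccl1 differed by 2.87 and Il2 by 4.97, the latter against 2.51, 0, 0 and 2.096 CPM. Members therefore held more of these factors than barcodes chosen for Ccl4 alone. Xcl1 stood at 239, 181, 300.0 and 85.2 CPM in the Ccl4 barcodes and did not pass (2.10 ± 0.47 (SE), adjusted p = 0.19), though DESeq2 called it. Crtam (0.92) and Cd160 (0.73) were higher. Of 21 secreted factors tested, 6 were higher (Il2, Ccl3, Tnfsf9, Ccl1, Tnfsf14 and Tnfsf11) and 1 lower, Ccl5, at 2443, 2526, 3593 and 2803 against 3653, 3096, 4471 and 3907 CPM (-0.41 ± 0.07 (SE), adjusted p = 5.5e-04).

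Other groups split in the same comparison. Of 32 receptor-induced genes, 11 were higher, led by Il2ra (1.58), and none lower. The MYC and ribosome biogenesis list had 13 of 22 higher and none lower, with a median of 0.59. Of the 20 cytotoxic genes, 5 were higher, and Gzmb did not pass (0.34 ± 0.27 (SE), adjusted p = 0.69), with 397, 935, 579 and 1292 CPM in the Ccl4 barcodes. Of 19 naive and stem-like genes tested, 7 were lower, with Tcf7 at 90.5, 79.2, 58.3 and 60.1 CPM in the Ccl4 barcodes (-1.59). Zfp36l2 was lower in members here too (-0.68), at 518, 681, 429 and 499 CPM in the Ccl4 barcodes. Nrn1, a neuritin gene of activated T cells, differed by 2.02, Eef1e1 by 1.33 and Bcat1 by 1.76, and Cxcr4 (-1.48), Samd3 (-1.37) and Scmh1 (-1.33) were lower. In edgeR, leaving out PBS library 2 ended the calls for Tnfsf11 (adjusted p = 0.057) and Cxcr4 (0.062), and leaving out the combination those for Tnfsf11 (0.061) and Eef1e1 (0.15). Sdk1 (2.56) was also called higher, with 132 of 139 UMIs of PBS library 1 in 1 barcode. The combination held much of it too, as members without an Xcl1 UMI stood at 210, 1.47, 2.91 and 37.5 CPM. When members with UMIs of other lineages were left out, Sdk1 stood at 5.85, 7.77, 2.7 and 1.13 CPM in the members kept.

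The genes whose level went most with Ifng were found by correlating thinned UMIs (2000 per barcode) across all CD8 barcodes of each library and averaging the 4 correlations. Ccl3 had the highest mean correlation, 0.34 (0.32, 0.29, 0.39 and 0.35), next to 0.35 for Ccl4, which the rule used. Havcr2 followed at 0.22, then Gadd45b at 0.20, Lgals1 at 0.20, Bcl2a1b at 0.20, Il2ra at 0.20, S100a4 at 0.19 and Tnfrsf9 at 0.19. These are descriptions over 968, 843, 1495 and 1840 barcodes that share a library and a fixed depth, and apart from Ccl3 they are weak.

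Members with and without Xcl1 differed in many genes. At least 3 Xcl1 UMIs were found in 50, 41, 50 and 75 members and none in 58, 110, 134 and 181, that is 40.0%, 24.1%, 24.9% and 26.4% of members with at least 3. Depth was close in both (medians of 10508, 11521, 7506 and 10679 UMIs with Xcl1 and 9901, 11917, 6982.5 and 9497 without). This split uses a measured gene and is described without a test. The Xcl1 barcodes also held more of the genes of the rule. Ifng stood at 2879, 1793, 9409 and 6259 CPM with Xcl1 and 679.6, 977, 2009 and 730.1 CPM without, and Ccl4 at 6096, 6191, 8495 and 13829.6 CPM against 1157, 1687, 2970.4 and 2795 CPM. The split therefore goes with the level of Ifng and Ccl4, and the part of that level in the other differences was not tested. Ccl1 stood at 413, 370, 360 and 164 CPM in the Xcl1 barcodes and 1.53, 8.11, 26.2 and 29.4 CPM in those without. Crtam stood at 323, 471, 383 and 300 CPM against 36.8, 77.4, 65.9 and 72.3 CPM, and Cd160 at 279, 289, 335 and 246 CPM against 59.8, 113, 112 and 64.8 CPM. These are the same receptors that mark the whole group, and here their level was higher with Xcl1 in all 4 libraries. The set without Xcl1 was larger, so these levels do not give the share of UMIs in each set. Most barcodes with an Il2 UMI, 7 of 8, 8 of 12, 7 of 11 and 12 of 16, had at least 3 Xcl1 UMIs.

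Over 6081 genes, 45 (0.74%) were at least 2-fold higher with Xcl1 in all 4 libraries and 6 were at least 2-fold lower. All 21 measured genes of the MYC and ribosome biogenesis list were higher in all 4 libraries, 8 of them at least 2-fold, whereas over all genes 1086 were higher and 1365 lower in all 4. Ncl stood at 1938, 2082, 1595 and 1458 CPM with Xcl1 and 907, 824, 634 and 696 CPM without. Of 31 receptor-induced genes, 19 were higher in all 4 libraries, 4 of them at least 2-fold (Nfkb1, Nfkbid, Crtam and Myc). The secreted factors at least 2-fold higher in all 4 were Il2, Ccl1, Ccl3, Tnfsf11, Tnfsf14 and Cd40lg, 6 of 17. The cytotoxic list went the other way, with 1 of 18 genes higher and 8 lower in all 4, and 9 of 18 interferon-stimulated genes were lower in all 4 with none higher. Ccl3 did not require Xcl1: members with at least 3 Ccl3 UMIs and no Xcl1 were 12.0%, 23.5%, 33.8% and 23.2% of all members, and those with at least 3 of each 20.8%, 14.1%, 19.9% and 21.1%.

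**Figure D4:**
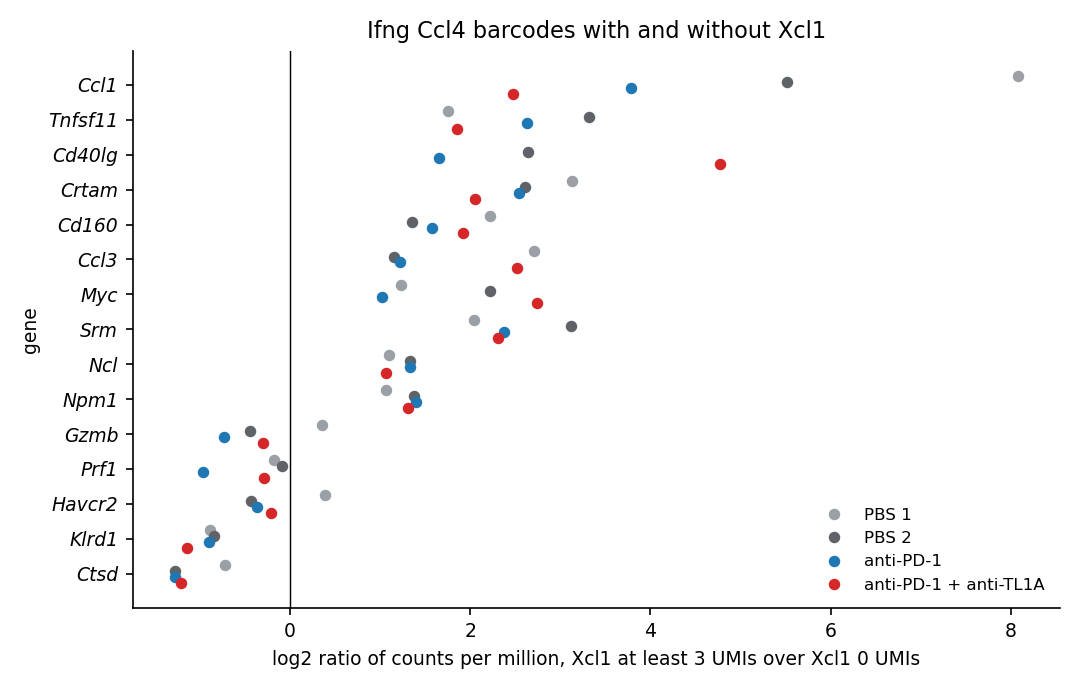
Log2 ratio of the level in CPM of members with at least 3 Xcl1 UMIs over that of members with none (horizontal axis) for 15 genes (vertical axis), 1 point per library, with a line at 0. Ccl1, Crtam, Cd160 and Ncl lie to the right of the line in all 4 libraries and Prf1, Klrd1 and Ctsd to the left, and Cd40lg of PBS library 1 is not drawn because its level without Xcl1 was 0.

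Treatment was compared within members, each antibody group against the same 2 PBS libraries, so both comparisons share their controls. Each treated group is 1 library and was assumed to vary like the PBS pair, which leaves 1 residual degree of freedom. With anti-PD-1, 13 of 10482 genes (0.124%) were called, 12 of them higher. Without the 51 barcodes that held UMIs of other lineages, 48 of 9781 (0.491%) were called, 33 higher and 15 lower. For the combination the counts were 4 of 10482 (0.0382%) and 80 of 9781 (0.818%), the latter 63 higher and 17 lower. Over the settings tried the count ran from 2 to 159 with anti-PD-1 and from 2 to 258 with the combination, the largest with barcodes of 4000 to 20000 UMIs and with barcodes found in 1 library only. The number of calls thus hung on which barcodes were kept, and the fit is named beside each gene below.

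The chemokine Ccl3 and the granule gene Gzma rose in the anti-PD-1 members in both fits. Ccl3, at 877, 789, 2304 and 2047 CPM, had both treated libraries above both PBS libraries. With anti-PD-1 it rose by 1.61 ± 0.21 (SE), adjusted p = 0.011, and by 1.58 ± 0.24 (SE), adjusted p = 1.9e-07 without the 51 barcodes. The combination against PBS gave 1.32 ± 0.21 (SE), adjusted p = 0.068, which did not pass, and 1.31 ± 0.24 (SE), adjusted p = 4.2e-05 without the 51. Gzma, the granule protease granzyme A, stood at 272, 232, 752 and 483 CPM and rose with anti-PD-1 by 1.72 ± 0.20 (SE), adjusted p = 0.0057 (1.67 ± 0.22 (SE), adjusted p = 2.7e-10 without the 51). The other CD8 barcodes, at 158, 182, 549 and 323 CPM, also had both treated libraries above both PBS libraries. Prf1, at 232, 272, 473 and 405 CPM, gave 1.04 ± 0.20 (SE), adjusted p = 0.11 in the first fit and 1.05 ± 0.21 (SE), adjusted p = 9.6e-04 in the second. Gzmb, at 710.4, 710.1, 1075 and 1410.0 CPM, was called only for the combination and only in the second fit (1.05 ± 0.23 (SE), adjusted p = 0.0021).

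The membrane proteins Ifitm1, Ifitm2 and Ifitm3, which interferons induce, were also called with anti-PD-1. Ifitm1 stood at 229.8, 223, 548 and 323 CPM (1.41 ± 0.19 (SE), adjusted p = 0.013, and 1.52 ± 0.21 (SE), adjusted p = 5.6e-09 without the 51). Ifitm3 stood at 68.4, 56.6, 189 and 120.1 CPM and at 45.95, 47.1, 98.7 and 45.1 CPM without the 51 barcodes, so many of its UMIs lay in them (1.74 ± 0.20 (SE), adjusted p = 0.0057 in the first fit and 1.21 ± 0.25 (SE), adjusted p = 8.9e-04 in the second). Tyrobp, an adaptor of NK and myeloid receptors, stood at 37.4, 29.3, 122 and 89.7 CPM and at 17.5, 17.1, 39.9 and 51.1 CPM without them (2.02 ± 0.23 (SE), adjusted p = 0.0057 and 1.33 ± 0.33 (SE), adjusted p = 0.022). Of 24 interferon-stimulated genes in the second fit, 1, Ifit3, was lower and none was higher with anti-PD-1, and the Ifitm genes were not in that list. In the same fit Ly6a (1.31), Ptpn3 (1.37), Sv2c (1.25), Il2ra (0.84), Zbtb32 (0.94), Tnfrsf18 (0.81) and Il10 (1.70) were higher. Ier5l (-2.06), the phosphatase Dusp6 (-1.78), Nol6 (-1.75), Cebpb (-1.71), Tnfsf8 (-1.67), Sema6d (-1.23) and Zfp36l2 (-0.86) were lower. From Ly6a to Zfp36l2, these genes had the same sign with all members but did not pass there (adjusted p from 0.11 to 0.66 in edgeR).

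Myeloid genes led the calls in the full member sets but lay in a few barcodes. S100a9, a neutrophil protein, stood at 0.705, 0.960, 9.17 and 139 CPM in members, and 430 UMIs of the combination lay in 7 barcodes, 234 of them in 1. S100a8 stood at 0.705, 1.44, 1.83 and 90.3 CPM, with 279 UMIs in 9 barcodes, and Cxcl2 at 6.34, 11.99, 32.4 and 132 CPM, with 409 UMIs in 13. These 3 genes and Il2 were the 4 calls of the combination. S100a8 and S100a9 are among the 31 genes by which the 51 barcodes were found, so their fall without them is by construction. With anti-PD-1, S100a9 differed by 3.47 ± 0.53 (SE), adjusted p = 0.029, and the call was lost without the combination library (adjusted p = 0.57 in edgeR). Slc8a1 with anti-PD-1 had 89 UMIs in 9 barcodes, and its log2 difference turned from 2.70 to -0.78 without the 51.

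Il2 was the fourth gene called in the combination. It stood at 19.03, 18.2, 15.9 and 78.7 CPM and rose by 2.10 ± 0.26 (SE), adjusted p = 0.012 against PBS, and by 2.23 ± 0.27 (SE), adjusted p = 7.1e-13 without the 51 barcodes. The rise rests on 16 barcodes of the combination, against 8, 12 and 11 in the other libraries, and 1 of them held 112 of 243 UMIs, and the share of members with an Il2 UMI, 6.40, 7.06, 5.47 and 5.63%, was no higher in the combination than in PBS. Il2 also shares 33.4% of the 31-base stretches near its 3′ end with Ntan1, so its reads could be split between the genes. DESeq2 did not call it, with an adjusted p of 1. In the second fit the combination also had more of Spp1 (1.89) and Cst3 (1.36), which macrophages and dendritic cells make at high level, and of Ptpn3 (1.57), Tbc1d4 (1.52), Tmem131 (1.28), Il2ra (0.85), Il10 (1.45), Gzma (0.95) and the decay factor Zfp36 (1.06). Lower were Nphs1 (-1.72), Osgin1 (-1.55), the receptor-induced factor Egr3 (-1.28), Snhg12 (-1.17) and the transfer RNA synthetases Aars (-1.02) and Yars (-1.01). From Spp1 to Yars, these genes had the same sign with all members but did not pass there (adjusted p from 0.24 to 1 in edgeR), and Cst3 was at 0.20 there. Aars shares all of its 3′ stretches with Exosc6 and Nphs1 11.3% with Tnfaip8l1, so both are uncertain.

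**Figure D5:**
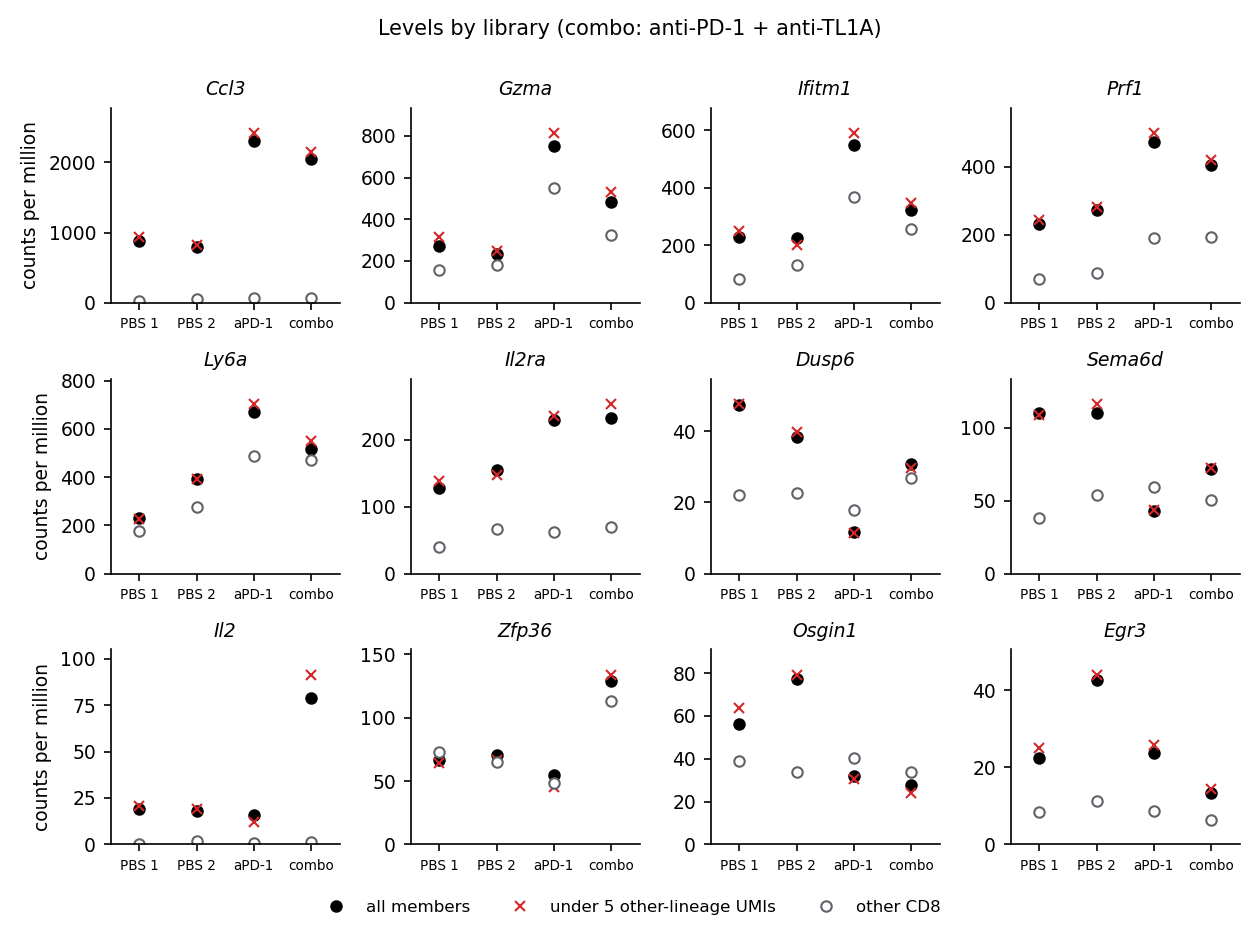
Level in CPM (vertical axis, from 0) of 12 genes in each of the 4 libraries (horizontal axis; aPD-1 is anti-PD-1 and combo the combination), 1 panel per gene, in all members (filled), in members without the 51 barcodes of other lineages (crosses) and in other CD8 barcodes (open). Ccl3, Gzma and Prf1 of the members lie higher in both treated libraries than in both PBS libraries, while Il2 of the members stands apart in the combination.

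Of the markers that name these cells and that the rule did not use, only Ccl3 passed a treatment test. Xcl1, Crtam and Cd160 gave -0.58 ± 0.37, -0.00 ± 0.19 and 0.28 ± 0.19 with anti-PD-1 and -0.25 ± 0.36, -0.26 ± 0.19 and -0.21 ± 0.19 with the combination, none of which passed, and none passed without the 51 barcodes. Havcr2 (0.11 ± 0.20 and -0.03 ± 0.20) and Pdcd1 (0.14 ± 0.20 and -0.47 ± 0.20) did not pass in either fit. A p that misses the threshold in a design with 1 library per treated group does not show that levels were equal. Ifng itself stood highest in the anti-PD-1 members and Ccl4 in the combination, at the levels given above, and as genes of the rule they were not tested.

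Because the anti-PD-1 library was the shallowest, members were also chosen anew at equal depth, by thinning each barcode of at least 4000 UMIs to 4000. They needed 2 UMIs each of Ifng and Ccl4 and under 5 of other lineages. This set of 93, 110, 156 and 201 barcodes was defined after values were seen and is given without a test. Ccl3 stood at 1306, 1123, 2968 and 3308 CPM in it, Gzma at 438, 243, 888 and 736, Prf1 at 212, 248, 530.4 and 410.4, Ifitm1 at 301, 286, 729 and 381 and Ly6a at 277, 411, 782 and 521 CPM. For all 5 genes both treated libraries lay above both PBS libraries, as in the full member sets. Il2 stood at 48.4, 31.8, 4.81 and 190.3 CPM, from 18, 14, 3 and 153 UMIs, with the combination again apart. The spread of these Il2 UMIs over barcodes was not examined in this set, which is drawn from the same libraries. Ifng stood at 2234, 1718, 4929 and 3736 CPM, Ccl4 at 5637, 4116, 5697 and 10760.0 CPM and Xcl1 at 1352, 1068, 715 and 1076 CPM.

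The combination library against the anti-PD-1 library compares those 2 libraries, not the conditions. In all members 2 of 10482 genes (0.0191%) were called, S100a8 and S100a9, and without the 51 barcodes 45 of 9781 (0.46%), 33 higher and 12 lower in the combination. Il2 differed by 2.81 ± 0.37 (SE), adjusted p = 2.6e-10 in the second fit. Tcf7 stood at 17.5, 28.5, 8.12 and 32.3 CPM in that set and differed by 1.89 ± 0.47 (SE), adjusted p = 0.022, with the anti-PD-1 library lowest. Zfp36 (1.47), Hspa1a (3.01), Cebpb (2.05), Ier5l (1.68), Tmcc3 (1.63), H2-M3 (1.61), Dcaf12 (1.58) and Tbc1d4 (1.58) were higher in the combination. Ccl1 (-0.94), Nphs1 (-2.15), Cdk8 (-1.34), Ifitm3 (-1.23), Romo1 (-1.06), Lars2 (-1.01) and Tpi1 (-0.98) were lower. With all members none of these genes passed (adjusted p from 0.086 for Il2 to 0.93 for Ccl1 in edgeR). Cdk8 had the same order of libraries in the other CD8 barcodes (759, 895, 1072 and 441 CPM) as in members (539.9, 736, 897 and 389 CPM).

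Whether a treatment difference was particular to members was tested as an interaction with the other CD8 barcodes. For anti-PD-1, 6 of 13345 genes (0.045%) were called in the full sets (Maml3, S100a9, Lyz2, Slc8a1, Gda and Cybb), and 30 of 12403 (0.242%) without barcodes of other lineages. In the full sets 0 were called by edgeR when the combination library was left out of the fit, with 463 at an unadjusted p under 0.05, and 0 by DESeq2. For the combination, 2 (0.015%, S100a8 and S100a9) and 117 (0.943%) were called. Ccl3, Gzma and Prf1 were not among them: for Gzma the interaction with anti-PD-1 was -0.03 ± 0.19 (SE), adjusted p = 1 in the full sets and -0.02 ± 0.15 (SE), adjusted p = 1 without barcodes of other lineages. In the second fit the combination differed most in the naive and stem-like list, where 8 of 20 genes were higher in members relative to the others. Tcf7 had an interaction of 1.22 ± 0.27 (SE), adjusted p = 0.0016 in that fit, where members stood at 17.5, 28.5, 8.12 and 32.3 CPM. In the full sets it stood at 16.2, 28.3, 14.7 and 30.4 CPM in members and 169, 154, 86.1 and 98.7 CPM in the others. In the second fit Ccr7 (1.39), Il7r (1.12) and Lef1 (0.79) were called in the same direction, and with anti-PD-1 Lef1 was (1.03). For Tcf7 and Lef1 the other CD8 barcodes had less in both treated libraries than in both PBS libraries, while the members were low in every library. Cxcr6 (-0.74), Lag3 (-0.65) and Csf1 (-1.04) were called in the opposite direction for the combination. In the full sets none of these interactions passed (adjusted p from 0.34 to 1 in edgeR).

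Tnfrsf25, which encodes the receptor of TL1A, was found in 0, 0, 2 and 2 members, with 1 UMI in each. A count of 0 of 125 allows a share of up to 2.40% and 0 of 170 up to 1.76%, for counting error only. These limits are on members with a UMI of the gene, not on members that express it. In the other CD8 barcodes it was found in 13 of 843, 12 of 673, 7 of 1318 and 6 of 1572, a smaller share in both treated libraries than in both PBS libraries, which was not tested. With so few UMIs no order was read among the members.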

How the data were processed

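The authors deposited raw UMI counts per gene and barcode for 4 droplet libraries, as matrices already filtered to barcodes called as cells. Per the submitters' processing notes these were made with Cell Ranger 3.0.2 on mm10, whereas per the file headers they were written by Cell Ranger 7.1.0. The counting of intronic reads is not stated. Of 32285 gene IDs, 32158 matched GENCODE M21.

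Members were chosen by the rule given at the start, and both the members and the gene lists were chosen with earlier results of these data known. UMIs were summed per library and class (members, other CD8 barcodes, Ccl4 barcodes without Ifng). Sums were compared with edgeR 4.0.16 (quasi-likelihood, robust, TMM scaling, genes kept at a minimum count of 10), with Benjamini-Hochberg adjustment over all genes tested and a threshold of 0.05. The fits were also run on simulated data. The simulated spread between sums was below that of the full-set treatment and interaction fits (coefficients of variation of 22.2% and 15.5%). That run therefore does not show how those fits err. Comparisons of classes had library as a term and 3 residual degrees of freedom, and treatment comparisons had 1. Genes of the rule were in every fit and are not reported as results. DESeq2 1.42.0, other scalings, filters, thresholds and left-out barcodes or libraries were alternatives. Genes were named by size among those called with a mean of at least 20 CPM. These were the 15 with the largest rise and 10 with the largest fall against other CD8 barcodes. They were 8 and 8 against Ccl4 barcodes, 8 and 6 by treatment and 4 and 4 for interactions. The same sign in all 4 libraries was asked only against other CD8 barcodes and against Ccl4 barcodes. Against PBS, the treated library had to lie above both or below both PBS libraries. Between the treated libraries and for interactions no such condition was set. Unnamed gene models, receptor segments, ribosomal and mitochondrial genes were left out. Also named were 2 to 4 genes of each list and the genes of the working name. List members that did not pass are named where central to their list. Gda, Cybb, Hspa1a and other genes in the enumerations of calls that fall outside this rule, and the genes of the equal-depth set, were named after their values were seen.

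Scrublet, run in scanpy 1.11.5, marked 0 to 2 barcodes per library by its automatic threshold and had therefore not worked, so barcodes with the highest scores, at 0.8% per 1000 barcodes, were left out as an alternative. Fits without the 21 members whose barcode recurred in another library, and without the 51 members with at least 5 UMIs of other lineages, were chosen after seeing the data. In fits that also held other CD8 barcodes, the same terms were applied to those. The lineage term left out 82, 99, 65 and 131 of them. Each 31-base stretch in the last 500 bases of the longest transcript of 90 named genes was looked up in the same ends of the other genes. In all, 4 genes shared over 10% of them: Aars, Lyz2 (36.2%, with Lyz1), Il2 and Nphs1. Other parts and other transcripts of the genes were not searched. Intervals and limits cover counting error only. Some genes of the lists are counted in them but not reported here by name.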

Additional observations from a re-analysis of the deposited data

Results flagged for a closer look

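6 differences between treated and PBS libraries were unlike in members and in other CD8 barcodes, by edgeR's test of the interaction. With anti-PD-1 the log2 difference in members exceeded that in other CD8 barcodes by 4.86 for S100a9, 3.11 for Slc8a1, 2.51 for Maml3 and 2.32 for Lyz2. With the combination it did so by 7.39 for S100a9 and 6.90 for S100a8. Members held 1, 2, 15 and 430 UMIs of S100a9 and 1, 3, 3 and 279 of S100a8, with 430 in 7 barcodes and 279 in 9 barcodes of the combination. Lyz2 stood at 15.5, 37.9, 197 and 101 CPM in members and 15.04, 13.5, 12.2 and 13.1 CPM without the 51 barcodes of other lineages, of which it is a defining gene. Maml3, a Notch coactivator, was the exception, as it stood at 11.98, 10.6, 30.6 and 17.5 CPM in members and 52.9, 54.3, 26.96 and 29.7 CPM in other CD8 barcodes. Its interaction in edgeR was 2.11 ± 0.49 (SE), adjusted p = 0.0091, when barcodes of other lineages were left out of both classes. Without the 51 members among them, Maml3 in members was lower too, at 5.01, 9.32, 16.2 and 7.88 CPM. The part of other cell types in the 6 differences was not tested beyond these fits.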

How the results depend on the processing

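Differences between members and other CD8 barcodes held best. Of 1240 values of named genes recomputed under the alternatives, 1137 kept their direction and their side of the threshold, 72 kept only the direction, 10 newly passed, 10 had no test and moved by more than 1 SE, and 11 changed sign. The 2085 genes called against other CD8 barcodes became 3382 against barcodes with 0 Ifng and 0 Ccl4, and ran from 1202 to 1576 with 1 library left out. The 369 called against Ccl4 barcodes without Ifng became 190 with DESeq2 and 74 without barcodes holding a UMI of other cell types, and ran from 157 to 296 with 1 library left out.

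Treatment counts moved far more. The 13 genes called with anti-PD-1 became 25 with DESeq2, 76 without the filter on low counts, 8 with sums thinned to equal totals, 2 with at least 5 UMIs of Ifng and Ccl4, 21 without the highest doublet scores, 159 at 4000 to 20000 UMIs, 141 with barcodes in 1 library only and 48 without the 51 barcodes of other lineages. The 4 called with the combination became 57 without the filter, 16 and 2 with at least 2 and at least 5 UMIs, 21 without doublet scores, 11 without UMIs of other cell types, 84 at 4000 to 20000 UMIs, 258 with barcodes in 1 library only and 80 without the 51. The 2 called between the treated libraries became 8 with DESeq2, 37 without the filter, 0 with at least 5 UMIs, 16 without doublet scores, 4 without UMIs of other cell types, 53 at 4000 to 20000 UMIs, 91 with barcodes in 1 library only and 45 without the 51. Of the genes called in all members, 6 of 13, 1 of 4 and 0 of 2 were also called without the 51. The 0 stood beside 329 genes at an unadjusted p under 0.05 in edgeR.

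For the interactions, the 6 called with anti-PD-1 became 0 with RLE size factors, 0 with DESeq2, 35 without the filter, 0 with at least 5 UMIs, 0 without doublet scores, 73 at 4000 to 20000 UMIs, 81 with barcodes in 1 library only and 30 without barcodes of other lineages in either class, and ran from 0 to 0 with 1 library left out. Unadjusted p was under 0.05 for 455, 337 and 495 genes in edgeR where 0 were called by RLE, by at least 5 UMIs and without doublet scores, and for 48 in DESeq2. The 2 called with the combination became 44 without the filter, 23 and 0 with at least 2 and at least 5 UMIs, 0 without doublet scores, 20 without UMIs of other cell types, 109 at 4000 to 20000 UMIs, 164 with barcodes in 1 library only and 117 without barcodes of other lineages in either class. For both counts of 0, unadjusted p was under 0.05 for 369 and 493 genes in edgeR. The log2 ratio of the member share with anti-PD-1 went from -0.32 to 0.20 and 0.15 after thinning to 2000 and 4000 UMIs.

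The 11 sign changes were of myeloid or concentrated genes. Without doublet scores and without the 51 barcodes, Slc8a1 with anti-PD-1 gave -2.33 and -0.78, and Cxcl2 with the combination -1.73 and -0.41. Without doublet scores and without barcodes of other lineages in either class, the interaction with anti-PD-1 gave -0.76 and -0.024 for Slc8a1 and -0.24 and -0.16 for Lyz2. Without doublet scores the interaction of S100a9 gave -1.67 with anti-PD-1 and -4.63 with the combination, and that of S100a8 -3.93. The cause of these shifts was not tested. Leaving out a PBS library leaves no residual degree of freedom in the treatment fits, so those gave values without calls. No paired analysis was possible because only the PBS group has more than 1 replicate, so the groups share fewer than 2 replicate numbers. Among the 780 members some genes, such as Il2, S100a8 and S100a9, rest on few barcodes, and 1 library per treated group limits every treatment value.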
